A study of Mus musculus with 6 samples.

Results

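Levels of 10 circadian clock genes were compared between the small intestine of wild-type (WT) mice and of mice lacking SHP (SHP-KO), in 3 RNA-seq libraries per genotype. The members are listed by gene symbol and are 10 of the 23284 genes in the count files: Arntl, Npas2, Per1, Per2, Per3, Cry1, Nr1d1, Nr1d2, Dbp and Tef. All 10 passed the filter on low counts, as did 12106 genes in all. Mice of both genotypes were males aged 8 weeks that had gone without food overnight and had then been refed for 6 h. RNA came from jejunum and ileum together, in proportions that the labels do not give. SHP, encoded by Nr0b2, is a nuclear receptor that represses transcription as a partner of other receptors. The labels give no strain, no form of the Nr0b2 allele, no hour of sampling, and do not say whether the 3 libraries of a genotype came from separate animals. The p-values thus reflect only how far these libraries differ among themselves, and that scatter may be technical.

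The molecular clock is a loop of transcription factors that runs in nearly every cell. Its positive arm, BMAL1 (encoded by Arntl) paired with CLOCK or NPAS2, binds E-boxes and switches on the Per and Cry genes, the REV-ERB receptors Nr1d1 and Nr1d2, and the PAR bZIP factors Dbp and Tef. PER and CRY proteins then inhibit the positive arm, and the REV-ERBs repress Arntl, Npas2 and other genes that carry ROR elements. In peripheral organs transcripts therefore peak in a fixed order over the day: Arntl and Npas2, then Nr1d1, then Dbp, Nr1d2, Per3, Tef and Per1, then Per2 and last Cry1. In gut, feeding is a strong setter of this cycle. Between samples that differ only in phase, genes of the positive arm and genes near the opposite phase, such as Nr1d1 and Dbp, would differ in opposite directions. Sampling here was at a single time, so phase itself was not measured.

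Total counts per library were 11265437 to 13511800 in WT and 7956528 to 9289543 in SHP-KO. Every SHP-KO library was thus shallower than every WT library, and raw counts printed here are not scaled for this, unlike CPM and fold changes. Nr0b2 had 31, 14 and 23 counts in the WT libraries, whereas the SHP-KO libraries held 1, 0 and 0. Markers of small intestinal enterocytes summed to 70430 to 72632 CPM (counts scaled by TMM to a common library size) in WT and 75867 to 76986 in SHP-KO. The genotypes differed across most of the transcriptome. At an adjusted p under 0.05 in edgeR's quasi-likelihood test, 70.6% of tested genes were called, 35.2% higher and 35.4% lower in SHP-KO.

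Promoter sequences are shown for the members in which a clock motif was found close to the start of transcription. RefSeq promoters (GRCm38.p6, a later build than the mm9 of the count files) matched 9 of the 10 members, all but Per2, and the 250 bases before each start were searched on both strands. The motifs were the E-box CACGTG, the D-box TTANGTAA, bound by DBP, TEF and HLF, and the ROR element TAGGTCA, and no matches overlapped in these windows. An E-box lay in the window of Per1, Cry1 and Tef, whereas 6.02% of 32851 promoters hold it. Per3 had D-boxes, found in 2.06% of promoters, and no member had an exact match to TAGGTCA in this window (2.23% of promoters). The search took exact letters only and ended at the start of transcription. It therefore does not show that a member lacks a variant of a motif or a motif elsewhere. The windows are chr11:69098699-69098948 (Per1, plus strand), chr10:85185055-85185304 (Cry1, minus strand), chr15:81802423-81802672 (Tef, plus strand) and chr4:151044666-151044915 (Per3, minus strand), each printed 5′ to 3′ on the strand of its gene with the motif in capitals.
Per1: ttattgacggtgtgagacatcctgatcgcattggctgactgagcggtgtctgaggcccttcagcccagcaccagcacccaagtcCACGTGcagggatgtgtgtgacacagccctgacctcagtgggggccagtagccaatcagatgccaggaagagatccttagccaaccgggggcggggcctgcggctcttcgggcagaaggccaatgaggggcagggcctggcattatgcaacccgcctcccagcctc
Cry1: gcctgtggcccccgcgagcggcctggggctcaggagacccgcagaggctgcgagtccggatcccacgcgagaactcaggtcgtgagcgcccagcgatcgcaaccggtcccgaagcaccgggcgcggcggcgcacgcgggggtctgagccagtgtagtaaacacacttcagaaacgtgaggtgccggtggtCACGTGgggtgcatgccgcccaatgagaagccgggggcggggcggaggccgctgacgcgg
Tef: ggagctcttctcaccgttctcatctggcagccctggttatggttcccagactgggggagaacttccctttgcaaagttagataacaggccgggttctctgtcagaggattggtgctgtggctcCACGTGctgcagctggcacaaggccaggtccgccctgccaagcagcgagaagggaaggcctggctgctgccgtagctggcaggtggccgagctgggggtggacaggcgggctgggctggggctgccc
Per3: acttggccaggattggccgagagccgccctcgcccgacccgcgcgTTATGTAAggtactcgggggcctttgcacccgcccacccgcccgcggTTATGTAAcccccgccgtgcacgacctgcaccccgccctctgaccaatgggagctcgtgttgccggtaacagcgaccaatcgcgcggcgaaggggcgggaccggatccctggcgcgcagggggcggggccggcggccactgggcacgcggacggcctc
The E-box began 166 bases before the start in Per1, 60 in Cry1 and 127 in Tef, and the D-boxes of Per3 began 205 and 158 bases before it. Tef has a further start whose window holds an E-box 138 bases upstream, and the further start of Per1 has none.

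Of the 10 clock genes 5 were higher in SHP-KO (Per2, Npas2, Nr1d1, Dbp and Nr1d2), 4 were lower (Arntl, Cry1, Per1 and Tef) and Per3 did not pass. That is 9 of 10 called, beside 70.6% of all tested genes. The groups' CPM ranges did not overlap for the same number of members, 9 of 10, beside 72.0% of all tested genes. Changes were small to moderate: 4 members were called with a change of at least 1.5-fold (Arntl, Npas2, Per2 and Nr1d1), beside 37.1% of all tested genes, and 0 of 10 reached 2-fold, beside 20.0%. Arntl was just under 2-fold and passed it under 6 of 17 alternatives, 3 of which left out 1 library (log2 -1.04 without WT replicate 1, -1.03 without WT replicate 2 and -1.06 without SHP-KO replicate 1). The median log2 fold change was 0.11 for the members and -0.01 for all tested genes. The median of its absolute size was 0.35 for the members and 0.42 for all tested genes. In whole tissue, fewer cells of a type and less RNA per cell cannot be told apart.

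**Figure D1:**
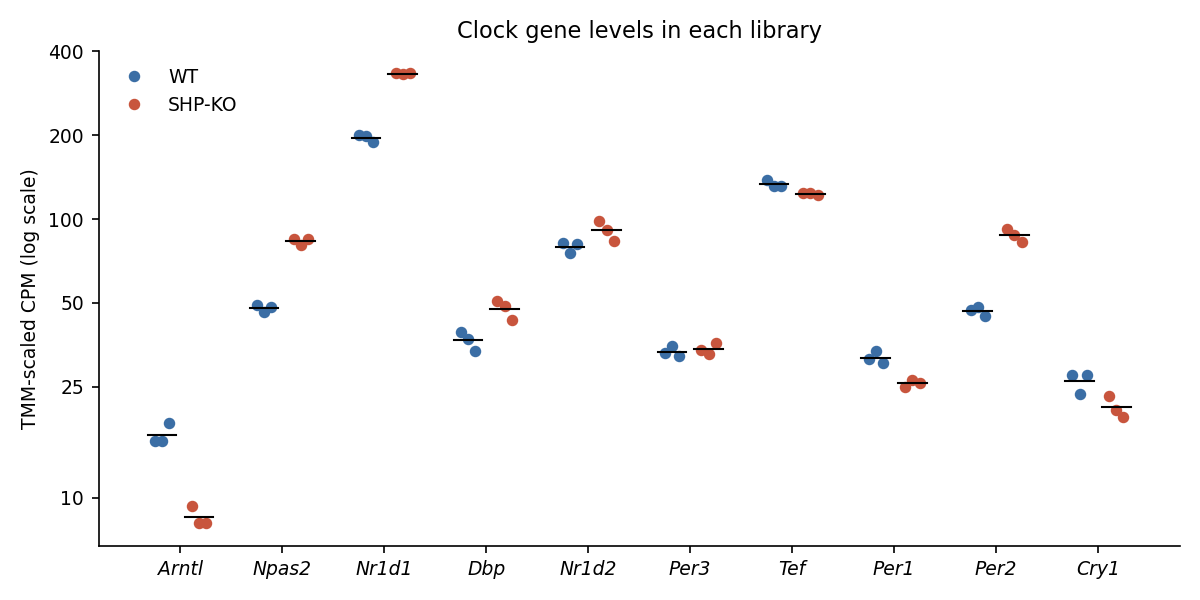
TMM-scaled CPM (log axis) of each member in the 3 WT and 3 SHP-KO libraries, ordered by the usual order of daily peaks, with points for libraries and a line for the group mean. Arntl falls from between 15.9 and 18.6 to between 8.09 and 9.29, whereas Npas2, Nr1d1 and Per2 lie higher in every SHP-KO library than in any WT library.

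The positive arm moved both ways. Arntl (chromosome 7, 120350979 to 120457640, mm9), which encodes BMAL1, stood at 15.9, 16.0 and 18.6 CPM in WT replicates 1 to 3, against 9.29, 8.09 and 8.14 CPM in SHP-KO. All SHP-KO libraries were below all WT libraries, and the level fell by 0.99 on the log2 scale (SE 0.12, adjusted p 3.2e-12, edgeR), a 1.99-fold difference. Npas2 (chromosome 1, 39251117 to 39420085), a paralog of CLOCK that pairs with BMAL1, stood at 49.2, 46.4 and 48.2 CPM in WT, against 85.0, 80.9 and 85.0 CPM in SHP-KO. It rose in every SHP-KO library, by log2 0.80 (SE 0.055, adjusted p 6.8e-24, edgeR), or 1.74-fold. Clock itself, the usual partner of BMAL1 and no member, fell from 41.4 ± 0.70 to 31.8 ± 0.93 CPM (SD, n = 3; log2 -0.38). Within each library the log2 ratio of Npas2 to Arntl was therefore 1.51 ± 0.13 in WT and 3.30 ± 0.098 in SHP-KO (SD, n = 3).

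The REV-ERB receptors were both higher. Nr1d1 (chromosome 11, 98629249 to 98636556), which encodes REV-ERB-alpha, stood at 199.7, 198.9 and 189.6 CPM in WT, against 333.7, 330.5 and 333.7 CPM in SHP-KO. These SHP-KO libraries lay close together, far above WT, and the rise was log2 0.76 (SE 0.033, adjusted p 3.1e-37, edgeR), or 1.70-fold. Nr1d2 (chromosome 14, 19036570 to 19071620), for REV-ERB-beta, stood at 82.0, 75.2 and 81.6 CPM in WT, against 98.0, 91.7 and 83.7 CPM in SHP-KO. The lowest SHP-KO library was just above the highest WT library, and the rise of log2 0.19 (SE 0.050, adjusted p 0.00049, edgeR) was no longer called with an assumed coefficient of variation (CV) of 0.2 (adjusted p 0.59, edgeR exact test) or when tested against a change of 1.5-fold. Nr1d1 was the member with the highest level per kilobase of exon in both genotypes, at 74.6 ± 2.14 CPM per kb in WT and 126.6 ± 0.69 in SHP-KO (SD, n = 3).

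Among the Per genes each took its own course. Per2 (chromosome 1, 93312559 to 93355905) stood at 47.2, 48.4 and 45.0 CPM in WT, against 92.1, 87.5 and 82.6 CPM in SHP-KO. It rose by log2 0.90 (SE 0.055, adjusted p 1.0e-26, edgeR), 1.86-fold, the largest rise of the 10 members, with the genotypes far apart. Per1 (chromosome 11, 68912458 to 68923459), the Per gene most quickly induced by cAMP and glucocorticoid signals, stood at 31.5, 33.5 and 30.5 CPM in WT, against 24.9, 26.5 and 25.8 CPM in SHP-KO. Its E-box window is printed above, and its level fell by 0.30 on the log2 scale (SE 0.076, adjusted p 0.00028, edgeR). Per3 (chromosome 4, 150377764 to 150418731), which is not needed for the loop to run, stood at 33.2, 35.0 and 32.2 CPM in WT, against 34.0, 32.8 and 35.8 CPM in SHP-KO. Its groups overlapped, and its log2 fold change of 0.03 had a 95% interval from -0.11 to 0.17 (adjusted p 0.69, edgeR), with a sign that turned under 4 of the alternatives. The log2 ratio of Per2 to Per1 within a library was 0.56 ± 0.027 in WT and 1.76 ± 0.11 in SHP-KO (SD, n = 3).

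Cry1 (chromosome 10, 84594445 to 84647799), which encodes a strong repressor of the positive arm, stood at 27.6, 23.6 and 27.5 CPM in WT, against 23.2, 20.6 and 19.5 CPM in SHP-KO. The lowest WT and highest SHP-KO libraries nearly met, and the level fell by 0.33 on the log2 scale (SE 0.085, adjusted p 0.00046, edgeR).

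The PAR bZIP factors, which carry the rhythm to output genes through D-boxes, went apart by small amounts. Dbp (chromosome 7, 52960617 to 52965573) stood at 39.4, 37.1 and 33.5 CPM in WT, against 50.9, 48.7 and 43.4 CPM in SHP-KO. Every SHP-KO library was above every WT library, and the rise was log2 0.38 (SE 0.069, adjusted p 1.2e-06, edgeR), or 1.30-fold. Of the 1678 exon bases of Dbp 539 (32.1%) are shared with Sphk2 on the opposite strand, a kinase gene that rose from 108.1 ± 3.58 to 151.9 ± 5.51 CPM (log2 0.49). Counting was unstranded and, per the file headers, without the option to count a read for several genes, so that reads in the shared bases entered neither gene. No other member shared exon bases with another gene of the files. Tef (chromosome 15, 81633103 to 81657293) stood at 137.6, 131.3 and 131.2 CPM in WT, against 123.7, 123.7 and 121.7 CPM in SHP-KO. The groups were separate but close, with a fall by 0.12 on the log2 scale (SE 0.040, adjusted p 0.0073, edgeR).

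The smaller changes depended on how the spread was set. With an assumed CV of 0.2 the adjusted p (edgeR exact test) was 0.37 for Per1, 0.36 for Cry1, 0.24 for Dbp and 0.76 for Tef, and these genes, like Nr1d2, did not pass the test against 1.5-fold either. Arntl, Npas2, Per2 and Nr1d1 passed both. Against 1.5-fold that is 4 of 10 members, beside 26.5% of all tested genes. In the authors' deposited table the same 4 of 10 members had an adjusted p under 0.05, beside 34.6% of its 12939 genes: 3 higher, beside 19.0%, and 1 lower, beside 15.6%. The authors' deposited table gives log2 fold changes of -1.003 for Arntl, 0.78 for Npas2, 0.88 for Per2 and 0.74 for Nr1d1.

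Set in the order of daily peaks, Arntl was lower, and Npas2, Nr1d1, Dbp and Nr1d2 were higher. After these, Per3 did not pass, Tef and Per1 were lower, Per2 was higher and Cry1 was lower. Opposite directions are foreseen only for genes near opposite phases, not for those that peak in between, and a difference in phase was not tested. By arm, directions were mixed. Of the 2 genes of the positive arm 1 fell and 1 rose. Of 7 genes driven through E-boxes (Nr1d1, Nr1d2, Dbp, Tef, Per1, Per2 and Per3), 4 rose, 2 fell and 1 did not pass, beside 35.2% of all tested genes higher and 35.4% lower. Cry1, which is E-box-driven too but was set apart for its later peak, fell, and with it 4 of 8 rose and 3 fell. Log2 fold changes of the 7 ran from -0.30 to 0.90 around a median of 0.19. Arntl ran opposite to Nr1d1, Dbp, Nr1d2 and Per2. Npas2, which peaks beside Arntl, differed in the direction of Nr1d1. Per1 and Tef, which the order above places in the same step as Dbp, differed in the direction of Arntl and opposite to Dbp. Within libraries the log2 ratio of Nr1d1 to Arntl was 3.65, 3.64 and 3.35 in WT and 5.17, 5.35 and 5.36 in SHP-KO. The ratio of Dbp to Arntl was 1.31, 1.22 and 0.85 in WT and 2.45, 2.59 and 2.42 in SHP-KO. Both ratios set a gene higher in every SHP-KO library over one lower in every SHP-KO library, so the groups had to separate. These ratios do not depend on library scaling, and they are descriptions, since their genes were each tested above.

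**Figure D2:**
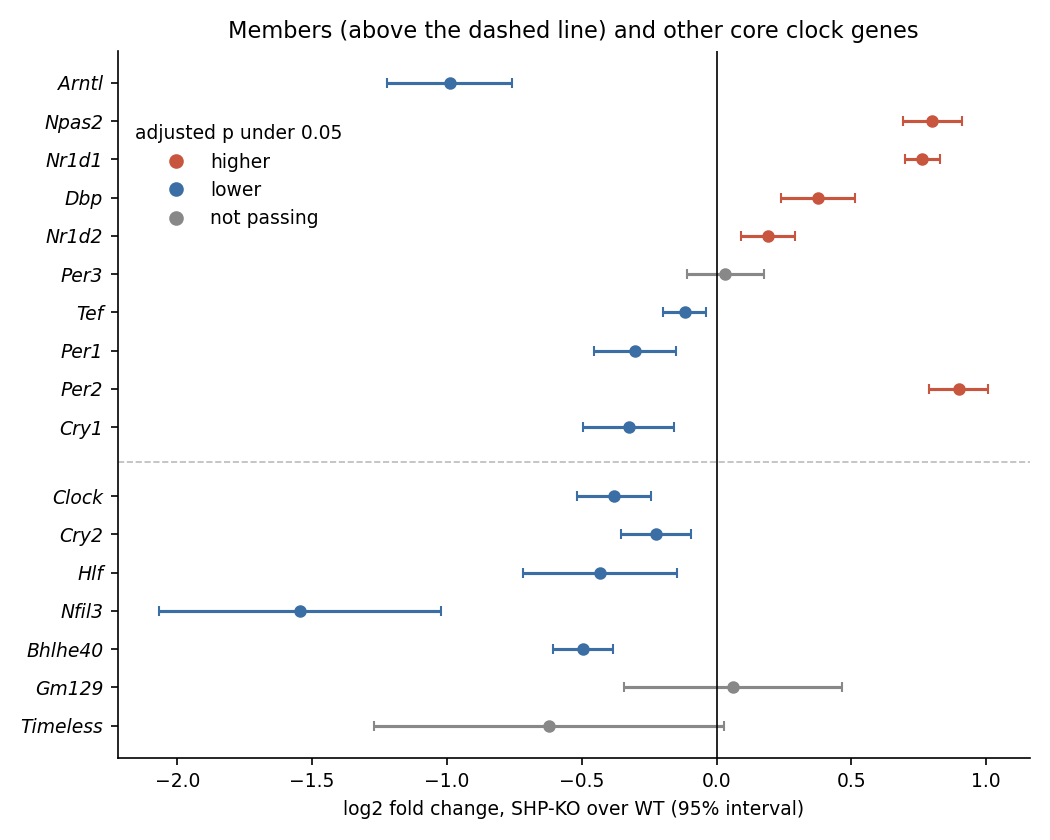
Log2 fold change of SHP-KO over WT with its 95% interval from edgeR's quasi-likelihood fit, for the 10 members in the usual order of daily peaks (above the dashed line) and 7 other core clock genes (below it), coloured by direction where the adjusted p was under 0.05. Arntl (-0.99) and Npas2 (0.80), the positive arm, lie on opposite sides of 0, and 0 of the 7 other core genes were called higher.

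**Figure D3:**
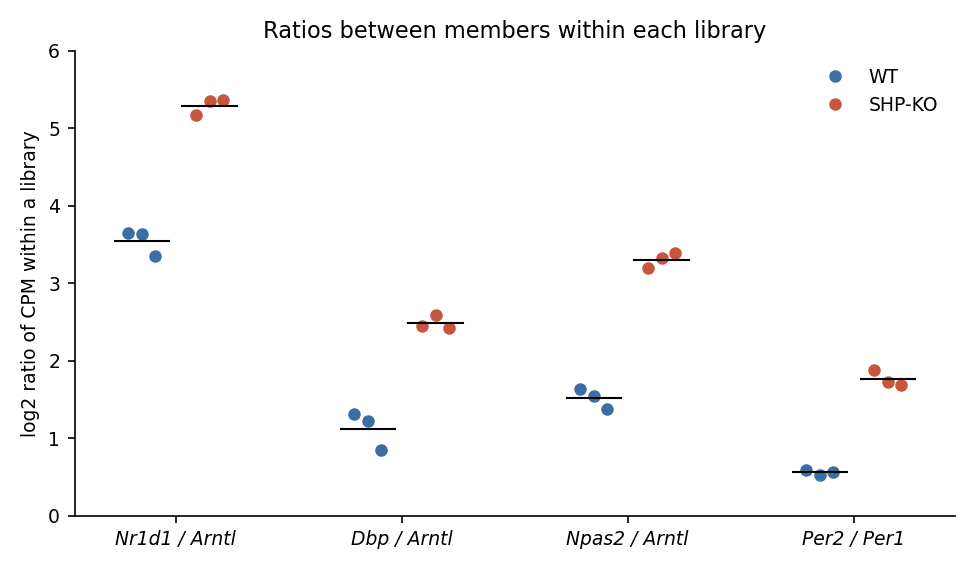
Log2 ratio of TMM-scaled CPM between pairs of members within each library, with points for libraries and a line for the mean of 3. Each ratio sets a member higher in every SHP-KO library over one lower in every SHP-KO library, so the groups had to separate. Nr1d1 to Arntl goes from 3.55 to 5.29 on average. The ratios of Npas2 to Arntl and of Per2 to Per1 were added to the planned ones.

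Levels per kilobase of exon, which can be compared between genes, ranked the members within each genotype. In WT the order from the highest was Nr1d1, Tef, Dbp, Nr1d2, Npas2, Cry1, Per2, Per1, Arntl and Per3, of which the neighbours Cry1 (8.70 ± 0.76 CPM per kb) and Per2 (8.03 ± 0.29), and Arntl (5.79 ± 0.53) and Per3 (5.62 ± 0.24), overlapped between libraries. In SHP-KO Per2 (14.98 ± 0.82 CPM per kb) was clear of Cry1 (6.99 ± 0.63), and Arntl (2.93 ± 0.23) was the lowest of the 10. The overlapping neighbours there were Dbp and Tef, Npas2 and Nr1d2, and Per3 and Per1. Divided by the exon bases that Dbp does not share with Sphk2, its level was 32.2 ± 2.61 CPM per kb in WT and 41.9 ± 3.37 in SHP-KO (SD, n = 3), which would place it above Tef (29.9 ± 0.83 and 27.6 ± 0.26) in both.

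The other core clock genes were mostly lower. Of 10 in the files 7 were tested, and 5 of these fell and 2 did not pass, beside 35.4% of all tested genes called lower, with a median log2 fold change of -0.43. Nfil3, the repressor at D-boxes, had 50, 48 and 55 counts in WT and 15, 10 and 10 in SHP-KO (log2 -1.54, SE 0.26), the largest change among them. Bhlhe40 (DEC1), which competes at E-boxes, fell from 73.1 ± 0.84 to 51.8 ± 2.70 CPM. The third PAR bZIP gene Hlf (log2 -0.43), Cry2 (-0.22) and Clock were lower as well. Gm129, an older symbol of the E-box-driven repressor Ciart, averaged 3.63 ± 0.34 CPM in WT against 3.81 ± 0.20 CPM in SHP-KO, and Timeless 1.79 ± 0.43 against 1.15 ± 0.27, and neither passed. Rora (1 count in all libraries), Rorb and Bhlhe41 were too low to test. With the assumed CV of 0.2, Nfil3 kept an adjusted p under 0.05 (9.8e-05, edgeR exact test), and Clock (0.24), Cry2 (0.53), Hlf (0.24) and Bhlhe40 (0.10) did not.

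Genes that REV-ERBs are known to repress through ROR elements were grouped after their values had been seen. Of Arntl, Npas2, Clock, Cry1 and Nfil3, 4 were lower in SHP-KO, beside 35.4% of all tested genes, and Npas2 was higher. A group picked in this way supports no reading of its direction. Of these 5, Nfil3 had an exact match to TAGGTCA in its RefSeq promoter window, beginning 12 bases before the start. Variants of the ROR element and bases past the start were not searched.

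The next list held 15 genes for kinases, ubiquitin ligases and enzymes that remove ubiquitin, all acting on clock proteins. Of these 7 fell, 2 rose and 6 did not pass, beside 35.4% of all tested genes lower and 35.2% higher (median log2 fold change -0.13). Csnk1a1, a casein kinase, and Gsk3b had log2 fold changes of -0.56 and -0.45. Huwe1, a ubiquitin ligase, rose from 74.6 ± 4.31 to 94.7 ± 2.30 CPM (SD, n = 3; log2 0.34). Csnk1d, a casein kinase that phosphorylates PER proteins, averaged 185.2 ± 3.98 CPM in WT against 185.3 ± 1.68 CPM in SHP-KO and was picked after its values were seen.

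Among known output genes of the clock 10 of 17 tested fell, 3 rose and 4 did not pass (median log2 fold change -0.63). Over all tested genes 35.4% were lower and 35.2% higher. By the smallest p the output genes were led by Tsc22d3, a gene that also responds to glucocorticoids (log2 -1.64), Nr1i3, the xenobiotic receptor CAR and a target of PAR bZIP factors (log2 2.55), and Cdkn1a (log2 -0.68). Wee1 and Nampt, E-box targets picked after their values were seen, fell by 1.83 and 1.07 on the log2 scale. Por and Alas1, picked in the same way as known targets of PAR bZIP factors, had log2 fold changes of 0.06 and 0.02 and did not pass. Tsc22d3 is also counted among the inputs to the Per genes, and Usp2 among both the output genes and the genes that modify clock proteins. Of 8 intestinal transporters with a known daily rhythm 6 rose and 2 fell, beside 35.2% and 35.4% of all tested genes. By the smallest p they were led by Mttp, which loads lipid onto chylomicrons (log2 0.89), Slc6a6, the taurine transporter (log2 -1.12), and Slc2a2, the glucose transporter GLUT2 (log2 1.03).

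Signals that act on the Per genes were compared through their own transcripts. Of 16 tested genes of glucocorticoid, cAMP and feeding inputs 8 fell, 5 rose and 3 did not pass (median log2 fold change -0.68). Without the deleted Nr0b2, 7 of 15 fell, beside 35.4% of all tested genes, and 5 rose, beside 35.2%. The smallest p belonged to Sgk1, Fkbp5 and Tsc22d3, all known to be induced by glucocorticoids, with log2 fold changes of -3.11, -4.86 and -1.64. Fkbp5 had 2409, 2146 and 2287 counts in WT and 48, 64 and 46 in SHP-KO. These moved in the same libraries as Per1 (log2 -0.30) and Per2 (log2 0.90), and their part in those differences was not tested.

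**Figure D4:**
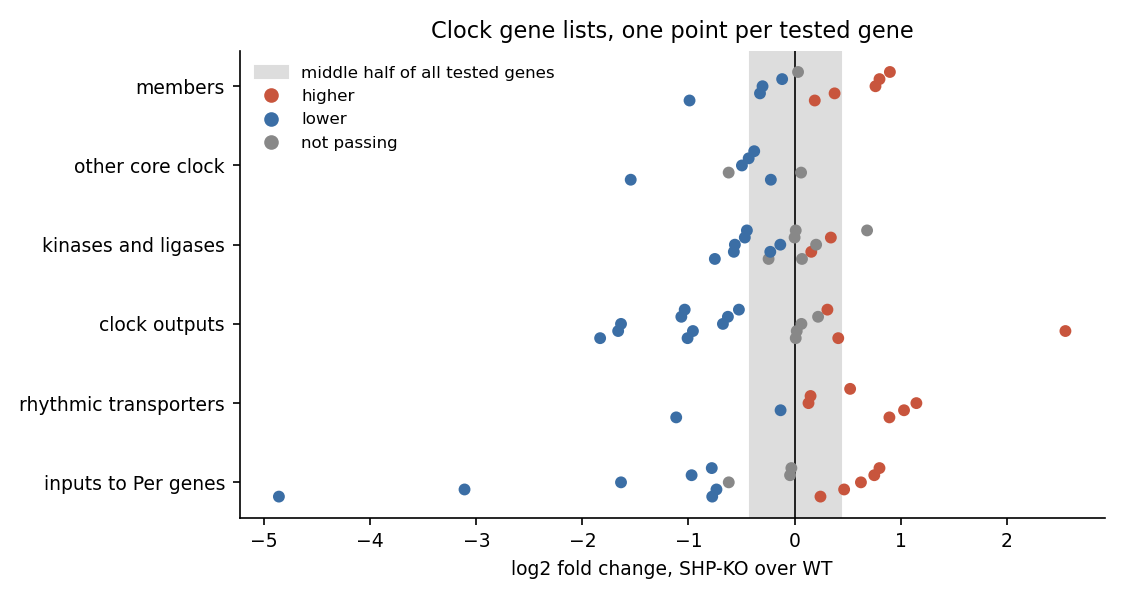
Log2 fold change of SHP-KO over WT for each tested gene of the members and 5 other lists, with 1 point per gene coloured by its call at an adjusted p under 0.05, and grey shading from the 25th to the 75th percentile of all tested genes (-0.42 to 0.44). Nr0b2, the deleted gene, is left out of the bottom row, where Fkbp5 (-4.86) and Sgk1 (-3.11) lie farthest to the left.

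Markers of cell types and gut segments differed between the same libraries. The 12 smooth muscle markers were all higher in SHP-KO, with a summed level of 427.0 to 431.7 CPM in WT and 1604 to 1630 in SHP-KO. Proximal small intestine markers summed to 5203 to 5313 CPM in WT and 26561 to 26940 in SHP-KO (8 of 11 higher, 3 lower). Ileum markers summed to 20978 to 21272 and 4393 to 4456 (8 of 11 lower, 3 higher). Most of the proximal sum was Apoa4 (means of 3525 CPM in WT and 18859 in SHP-KO). Much of the ileum sum in WT was Fabp6 (means of 10792 CPM in WT and 144 in SHP-KO). The 11 B cell markers were all lower, at 95.7 to 103.9 CPM in WT against 2.63 to 4.84 CPM in SHP-KO, where Faim3, Cr2 and Fcer2a had no counts. The 10 markers of dividing cells were all lower (183.2 to 190.5 and 54.7 to 63.5 CPM). Markers of neurons and glia (7 of 8 tested higher, 1 lower, sums of 16.8 to 20.1 and 53.9 to 54.7 CPM), fibroblasts (7 of 9 higher, 2 not passing, 37.3 in each WT library and 106.0 to 110.8 CPM) and adipocytes (4 of 4 higher, 116.8 to 120.2 and 156.7 to 168.1 CPM, with Lep at 0 in WT) were higher. Most of the adipocyte sum was Cidec (means of 116.1 and 137.7 CPM), and without it the sums were 2.10 to 3.29 CPM in WT against 23.0 to 27.4 CPM in SHP-KO. Of 10 enterocyte markers 7 were higher and 3 lower. The part of these differences in the levels of the clock genes was not tested.

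The genes most like Arntl over the 6 libraries, by the root mean square difference between centred log2 CPM profiles, were Gngt2 (0.041), Tlr3 (0.042) and Snx5 (0.053). For Dbp they were Dnajc17 (0.012), Plod1 (0.020) and 5033406O09Rik (0.046). Log2 fold changes were -0.97, -0.92 and -0.94 for the genes like Arntl, itself at -0.99. For the genes like Dbp, itself at 0.38, they were 0.38, 0.39 and 0.31. Profiles over these 6 libraries mostly follow the genotype difference, so likeness here is largely a similar fold change. Shared control was not tested.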

How the data were processed

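RNA from jejunum and ileum was sequenced as 100 bp reads in 3 WT and 3 SHP-KO libraries, grouped by their titles. Alignment tools listed in the submitters' processing notes are STAR 2.6.0c and the mm9 build, beside Trimmomatic 0.38 for trimming and edgeR. The deposited values are whole-number counts per gene, made by the authors with featureCounts 1.5.2, unstranded over exons, per the file headers. A comparison table deposited by the authors gives for each gene a log2 fold change, a mean log2 CPM, a p-value and its adjusted value, with settings not given in the sources used here.

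Counts were filtered with filterByExpr (minimum count 10), scaled by TMM and tested over all genes in edgeR 4.0.16 (R 4.3.3; quasi-likelihood F test, robust estimation) with Benjamini-Hochberg adjustment at 0.05. Standard errors came from that fit, and CPM values carry the TMM factors. The fitting script was tested on simulated data. Likeness was computed on log2(CPM + 0.5). Alternatives were RLE, upper quartile or no scaling factors, no filter or 1 CPM in 3 libraries, limma-voom (limma 3.58.1), DESeq2 1.42.0, a fit without robust estimation, a test against 1.5-fold (glmTreat), an exact test with an assumed CV of 0.2, the replicate number as a block, and leaving out each library. Figures were drawn with matplotlib 3.10.9.

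The members, lists and alternatives were chosen with earlier results of these data known. Named were all members, all other core clock genes, the 3 reported genes of smallest p in each other pathway list, Nr0b2, genes that share exons with a member, and the 3 genes most like Arntl and Dbp; some genes are not reported here and are left out of the lists, and others are marked as picked after their values were seen. Total counts of 7956528 to 13511800 limit the precision of low genes such as Nfil3 and Timeless.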

Additional observations from a re-analysis of the deposited data

How the results depend on the processing

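Under the 17 alternatives Arntl, Npas2, Per2 and Nr1d1 kept their direction and an adjusted p under 0.05, with log2 fold changes from -1.06 to -0.92, from 0.74 to 0.82, from 0.84 to 0.94 and from 0.70 to 0.77. Per1, Cry1, Nr1d2, Dbp and Tef kept their direction in all 17 and lost the call in 2, so that 3 members were called higher and 1 lower both with glmTreat at 1.5-fold and with the exact test at an assumed CV of 0.2. Over all genes these settings called 3206 and 4041 in place of 8543. Both ask for more than the spread between these libraries. Per3 changed sign without scaling factors (log2 -0.0051), without a filter (-0.027) and in the range over left-out libraries (-0.0023 to 0.060), and passed in none. Leaving out each library gave 5 members higher and 4 lower each time, and 8260 to 8407 genes called. With the replicate number as a block 8573 genes were called and no member's call changed. The numbers share no origin in the labels: same-numbered libraries had correlations of deviations of 0.022, 0.028 and -0.0054 over genes, and WT replicate 3 did not correlate best with its own number. Without scaling factors the median log2 fold change of all genes was -0.05 in place of -0.01.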

Other observations

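Prkaa2, a catalytic subunit of the energy sensor AMPK, which phosphorylates CRY1, was picked after its values were seen. It had 426, 351 and 401 counts in the WT libraries, whereas SHP-KO replicates 1 to 3 held 128, 142 and 1006. Its log2 fold change of 0.68 (SE 0.93) did not pass (adjusted p 0.55, edgeR), and its paralog Prkaa1 fell from 35.2 ± 2.88 to 25.4 ± 2.58 CPM (SD, n = 3). In SHP-KO replicate 3 every clock gene that was called stayed on the SHP-KO side of all WT libraries. Nr1d2 (83.7 CPM) and Dbp (43.4) there lay nearer to the highest WT library (82.0 and 39.4) than to SHP-KO replicate 2 (91.7 and 48.7).

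Within WT, replicate 3 held the highest Arntl (18.6 CPM) and the lowest Nr1d1 (189.6), Dbp (33.5), Per1 (30.5), Per2 (45.0) and Per3 (32.2) of the 3 libraries. Npas2 (48.2 CPM), Nr1d2 (81.6) and Cry1 (27.5) lay between the other WT libraries there, and Tef was level with replicate 2 (131.2 and 131.3). These differences, picked after the values were seen, are small beside those between genotypes for Arntl, Nr1d1 and Per2.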
